A study of Homo sapiens with 9 samples.

Results

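DPP4, EDIL3, LYPLA1 and TTPAL are 4 genes that differ between cells given a hairpin against CPSF3 and cells given a hairpin against RBFOX2, and the data below show which of those groups departs from control. They were chosen by the difference in gene level between those groups, from 16748 genes with a level on the array. The platform annotation gives 77 of 1384231 probe sets a single one of these symbols: 32 for DPP4, 16 for EDIL3, 16 for LYPLA1 and 13 for TTPAL. A further 4 probe sets name LYPLA1 beside another gene and were left out.

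The arrays measured total RNA of Flip-In-293, made from HEK293 human embryonic kidney cells so that transgenes enter at 1 site. All cells had been infected with lentivirus that expresses a short hairpin RNA and were cultured for 10 days. The groups were a hairpin against CPSF3, a hairpin against RBFOX2, and a non-silencing hairpin as control, with 3 arrays each. CPSF3 is the nuclease of 3′ end formation, which cleaves transcripts ahead of polyadenylation, and RBFOX2 is a regulator of alternative exons. Each targeted group rests on the hairpin its label names, in a single cell line. The sample titles call the 3 arrays of a group biological replicates and the series description calls them technical replicates, so the p-values measure the spread between arrays, which may be technical.

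DPP4, also known as CD26, is a cell-surface exopeptidase that removes dipeptides from the start of peptides such as the incretin hormones, and in humans it binds adenosine deaminase. EDIL3 is a secreted matrix protein that binds alpha-v integrins through an RGD motif. LYPLA1 is an acyl-protein thioesterase of the cytosol that takes palmitate off proteins. TTPAL resembles the alpha-tocopherol transfer protein and carries the CRAL-TRIO fold, a pocket for lipids.

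The promoter sequences of DPP4 and EDIL3, on chromosomes 2 and 5, are shown as examples. They are the 250 bases before the annotated start in RefSeq for GRCh38.p14, both on the minus strand, at chr2:162074216-162074465 and chr5:84384881-84385130, written 5′ to 3′ along the gene. Capitals mark GC boxes, GGGCGG or its reverse complement CCGCCC, with overlapping matches counted.
DPP4: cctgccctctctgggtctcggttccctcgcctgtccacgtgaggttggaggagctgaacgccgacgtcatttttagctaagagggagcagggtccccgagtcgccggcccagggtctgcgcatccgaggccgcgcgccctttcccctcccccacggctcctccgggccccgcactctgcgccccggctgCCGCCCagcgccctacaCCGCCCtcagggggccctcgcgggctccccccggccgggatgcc
EDIL3: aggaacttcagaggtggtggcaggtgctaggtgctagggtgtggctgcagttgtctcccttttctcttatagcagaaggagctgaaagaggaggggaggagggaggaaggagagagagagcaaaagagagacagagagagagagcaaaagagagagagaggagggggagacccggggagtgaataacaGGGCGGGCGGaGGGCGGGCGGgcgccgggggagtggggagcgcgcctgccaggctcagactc
The DPP4 window holds 2 GC boxes, both on the reverse strand, and the EDIL3 window holds 4, all on the forward strand. At least 1 GC box lies in 42.3% of the 27305 promoter windows of the same length. Neither window holds a TATA box (TATAAA on either strand), which 11.1% of all windows hold. These letters are a description and say nothing of binding.

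The targeted transcripts came first as a check of the labels. RBFOX2 had 8.95, 8.82 and 9.05 on the arrays of its own hairpin, against 9.66, 9.54 and 9.38 on the control arrays, in log2 units of RMA signal. The difference was -0.58 ± 0.12 (SE of the fit), or 66.7% of the control level, with adjusted p = 0.0617 in limma. CPSF3 had 9.60, 9.27 and 9.27 with its hairpin, against 9.33, 9.29 and 9.80 in control, a difference of -0.09 ± 0.16 (adjusted p = 0.752). The arrays do not show a lower CPSF3 transcript under the CPSF3 hairpin, so directions below rest on the label of those arrays. Over all gene levels, centred per gene, RBFOX2 array 3 correlated at 0.42 with CPSF3 array 3 but at -0.21 and 0.004 with the other RBFOX2 arrays. Control array 3 correlated at 0.09 and 0.005 with the other controls and at 0.31 with RBFOX2 array 2. Array medians lay within 0.033 of each other.

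Of 8 markers of HEK293, embryonic kidney or neural cells, 7 were measured, and NEFL (-0.87 ± 0.12, adjusted p = 0.00122) and VIM (-1.05 ± 0.12, adjusted p = 0.000546), both intermediate filament genes, fell under the CPSF3 hairpin relative to control. The mean level of that list was 9.12 to 9.18 on CPSF3 arrays, 9.25 to 9.38 on RBFOX2 arrays and 9.40 to 9.46 on control arrays. The other measured members did not pass, with NEFM at -0.35, CDH2 at 0.22, EYA1 at 0.13, PAX2 at -0.08 and LHX1 at -0.01, and the list's median difference was -0.08. None of 9 fibroblast, 5 blood cell and 6 endothelium genes passed the test in this comparison. Of 6 proximal tubule genes MME fell (-0.38 ± 0.12, adjusted p = 0.0473 in limma). The mean level of the tubule list was 8.05 to 8.09 on CPSF3 arrays, 8.15 to 8.30 on RBFOX2 arrays and 8.20 to 8.27 on control arrays. Of all genes 4.38% passed as lower and 10.0% as higher in this comparison, and the marker counts were not tested against these shares. The part of these markers in the results below was not tested, and fewer cells of a type cannot be told apart from less RNA per cell in such bulk samples.

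The CPSF3 hairpin group was the one that departed from control for all 4 genes. DPP4, EDIL3 and LYPLA1 were at 53.1%, 44.1% and 52.3% of their control level there, and TTPAL was 2.22-fold higher. The control levels of DPP4 and TTPAL were at percentiles 30.6 and 23.6 of all genes, those of EDIL3 and LYPLA1 at 92.0 and 90.3. DPP4 had a mean of 7.41 under the CPSF3 hairpin, near the signal filter of 6.97, so the size of its fall is less certain. With the RBFOX2 hairpin none of the 4 passed the test against control; both comparisons share the same 3 control arrays. The CPSF3 arrays themselves entered the choice of these genes, so a departure of that group was made likely by the choice, and its p-values are given as a description and not as independent evidence.

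DPP4, the peptidase, had 7.56, 7.26 and 7.41 on the CPSF3 hairpin arrays, 8.52, 8.78 and 8.68 on the RBFOX2 hairpin arrays, and 8.42, 8.09 and 8.47 on the control arrays. The CPSF3 arrays all lay below every control array, and the RBFOX2 arrays all lay above every control array, by a small margin. Group means were 7.41 ± 0.15 with the CPSF3 hairpin, 8.66 ± 0.13 with the RBFOX2 hairpin and 8.32 ± 0.21 in control (SD, n = 3 each). The CPSF3 group differed from control by -0.91 ± 0.13 (95% interval 43.6% to 64.7% of control, adjusted p = 0.00166 in limma). The RBFOX2 group differed from control by 0.33 ± 0.13, with an interval of 103% to 154% of control and adjusted p = 0.277 in limma. Before adjustment over all genes the p of this limma model was 0.0246. RBFOX2 arrays lay all above control for 7.07% of genes.

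EDIL3, the integrin ligand, had 9.29, 8.89 and 9.08 on the CPSF3 hairpin arrays, 10.07, 10.59 and 10.43 on the RBFOX2 hairpin arrays, and 10.35, 10.20 and 10.26 in control. The CPSF3 arrays were the lowest of the 9, and the RBFOX2 and control arrays overlapped. Means were 9.09 ± 0.20 with the CPSF3 hairpin, 10.36 ± 0.27 with the RBFOX2 hairpin and 10.27 ± 0.08 in control (SD, n = 3 each). The CPSF3 difference from control was -1.18 ± 0.15 (95% interval 35.5% to 54.7% of control, adjusted p = 0.000787 in limma), the 70th by size among all genes. The RBFOX2 difference was 0.09 ± 0.15 (adjusted p = 0.857), with an interval of 86.0% to 132% of control.

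LYPLA1, the thioesterase, had 9.49, 9.12 and 8.93 on the CPSF3 hairpin arrays, 10.53, 10.17 and 10.32 on the RBFOX2 hairpin arrays, and 10.11, 10.03 and 10.20 in control. The CPSF3 arrays again stood below all others, while RBFOX2 and control overlapped. Means were 9.18 ± 0.29 with the CPSF3 hairpin, 10.34 ± 0.18 with the RBFOX2 hairpin and 10.12 ± 0.09 in control (SD, n = 3 each). The CPSF3 difference was -0.94 ± 0.15 (95% interval 42.0% to 65.1% of control, adjusted p = 0.00239 in limma). The RBFOX2 difference was 0.23 ± 0.15 (adjusted p = 0.553), with an interval of 93.9% to 145% of control.

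TTPAL, the gene that ran the other way, had 9.40, 9.15 and 9.39 on the CPSF3 hairpin arrays, 7.95, 8.07 and 8.41 on the RBFOX2 hairpin arrays, and 8.16, 7.65 and 8.69 in control. The CPSF3 arrays were the highest of the 9, and the 3 control arrays spread more widely than either hairpin group. Means were 9.32 ± 0.14 with the CPSF3 hairpin, 8.15 ± 0.24 with the RBFOX2 hairpin and 8.17 ± 0.52 in control (SD, n = 3 each). The CPSF3 difference was 1.15 ± 0.21 (95% interval 163% to 302% of control, adjusted p = 0.00451 in limma). Without control array 2 it was 0.89, and without control array 3, the highest control, it was 1.41. The RBFOX2 difference was -0.02 ± 0.21 (adjusted p = 0.98), with an interval of 72.4% to 134% of control, and its sign turned with the way probe sets were combined.

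**Figure D1:**
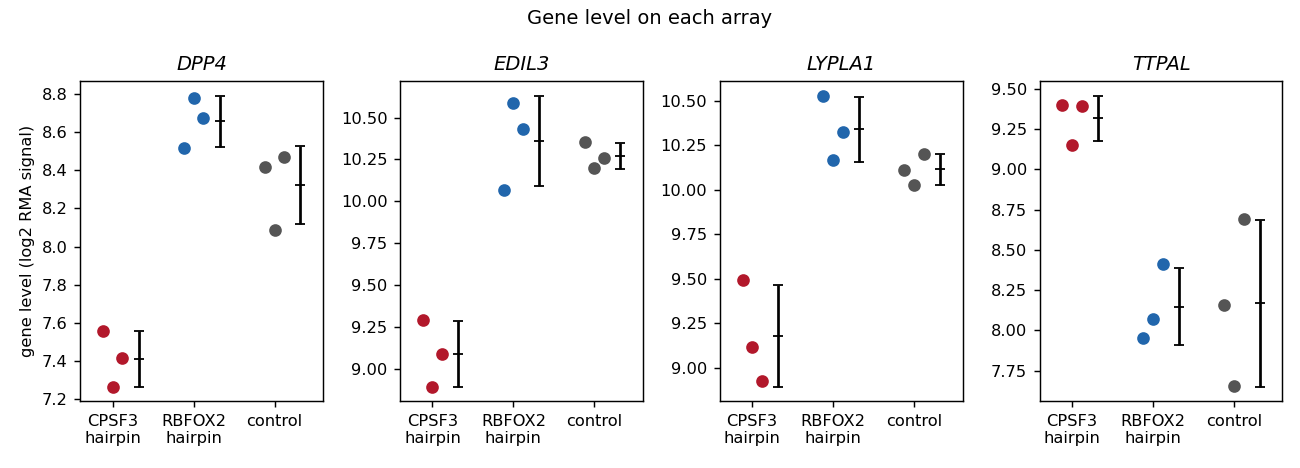
Gene level (log2 RMA signal, vertical axis, not starting at 0) of each of the 4 genes on each array, as points for the CPSF3 hairpin, RBFOX2 hairpin and control arrays, with the mean and SD of 3 arrays beside them. The CPSF3 arrays lie below all others for DPP4, EDIL3 and LYPLA1 and above all others for TTPAL, where they sit between 9.15 and 9.40.

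Many other genes differed between the CPSF3 hairpin group and control. Relative to control, 10.0% of all genes passed as higher and 4.38% as lower under the CPSF3 hairpin, and its arrays lay all above the control arrays for 17.9% of genes and all below for 13.2%. With the RBFOX2 hairpin 0.173% of genes passed. By size of the CPSF3 difference from control the other members ranked 83 (TTPAL), 255 (LYPLA1) and 291 (DPP4) of 16748, so many genes moved further from control than LYPLA1 and DPP4. In the contrast that chose the members, CPSF3 minus RBFOX2, 0.400% of genes passed and the differences were -1.27 for EDIL3, -1.25 for DPP4, 1.17 for TTPAL and -1.16 for LYPLA1, ranked 4, 5, 8 and 9 by size. The TTPAL value was the least stable and was 0.59 without the signal filter. TTPAL stayed under the threshold of 0.05 in 9 of 18 other settings, against all settings for DPP4, EDIL3 and LYPLA1. Because this contrast chose the genes, passing in it was made likely by the choice. These counts describe stability only and are no evidence for the genes.

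The mean of both hairpin groups against control is a contrast orthogonal to the one used for the choice. It uses the same arrays and the same estimate of spread, so its p-values are a description too. EDIL3 fell in it by 0.54 ± 0.13 (adjusted p = 0.0198 in limma), at 68.6% of control. The EDIL3 difference from control was -1.18 with the CPSF3 hairpin and 0.09 with the RBFOX2 hairpin, so this fall came from the CPSF3 arrays. Of all genes 2.99% passed as lower and 6.58% as higher. DPP4 (-0.29 ± 0.11, adjusted p = 0.134), LYPLA1 (-0.36 ± 0.13, adjusted p = 0.0968) and TTPAL (0.56 ± 0.18, adjusted p = 0.0641) did not pass. EDIL3 no longer passed without control array 1 (adjusted p = 0.111) or without control array 2 (adjusted p = 0.0643).

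The probe sets, each reading a short stretch of a gene, all had the direction of their gene under the CPSF3 hairpin. Their positions along the gene were not used here, so they are given by number and not by exon. Of the 60 probe sets above the signal filter, 51 belong to DPP4, EDIL3 and LYPLA1, and all 51 were lower under the CPSF3 hairpin than in control; all 9 of TTPAL were higher. The CPSF3 arrays lay all below the control arrays in 17 of 21 DPP4, 14 of 16 EDIL3 and 14 of 14 LYPLA1 probe sets, against 9.66% of all kept probe sets, and all above in 5 of 9 TTPAL probe sets, against 10.6%. Single probe sets passed the test in 6, 11 and 8 cases for DPP4, EDIL3 and LYPLA1 and in 3 for TTPAL, against 0.588% of all kept probe sets called lower and 1.01% called higher. These probe sets share a transcript, and the arrays chose the genes, so the counts describe how evenly each gene moved. The 17 dimmer probe sets pointed the same way too: 11 of DPP4 and 2 of LYPLA1 were lower and 4 of TTPAL were higher under the CPSF3 hairpin.

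Within DPP4, differences from control ran from -1.43 to -0.13 with a median of -0.74. The largest was in ps2584057 (array probe set number after the letters), which had 7.47, 7.08 and 7.22 with the CPSF3 hairpin, against 8.85, 8.26 and 8.96 in control (adjusted p = 0.0153 in limma). The smallest was in ps2584082, with 9.17, 9.34 and 9.22 under the CPSF3 hairpin, against 9.08, 9.32 and 9.73 in control, so these arrays overlapped. Without control array 3 that difference was 0.04 and turned direction.

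Within EDIL3 the range was -1.40 to -0.39, with a median of -0.99. The largest difference was in ps2865397, which had 8.53, 8.59 and 8.29 with the CPSF3 hairpin, against 9.95, 9.81 and 9.84 in control (adjusted p = 0.00985 in limma). In ps2865478 the arrays touched, with 8.96, 8.79 and 8.84 under the CPSF3 hairpin, against 9.38, 8.90 and 9.47 in control (-0.39 ± 0.21, adjusted p = 0.423).

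LYPLA1 had the narrowest range of the 4, with kept probe set differences between -1.04 and -0.68 and a median of -0.91. In ps3135582, the largest, the CPSF3 arrays read 7.34, 7.71 and 7.93, against 8.56, 8.80 and 8.74 in control. The same probe set had the largest RBFOX2 difference of the gene, with 8.46, 9.48 and 9.86 on the RBFOX2 arrays (0.57 ± 0.30, adjusted p = 0.619), where array 1 lay below the controls and arrays 2 and 3 above. The smallest CPSF3 difference was in ps3135584 (-0.68 ± 0.42, adjusted p = 0.509). The numbers of 3 LYPLA1 probe sets lie in a run apart from the others, and RefSeq lists processed copies of LYPLA1 elsewhere in the genome, so reads of a copy cannot be told apart there. Without the 2 of these that passed the filter, chosen after seeing the data, the CPSF3 difference from control was -1.001 and the RBFOX2 difference 0.22.

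TTPAL had differences from 0.16 to 1.38 and a median of 0.97. The difference in its gene level, a median taken on each array separately, was larger at 1.15. In ps3886517 the CPSF3 arrays had 9.21, 9.15 and 9.39, against 8.07, 7.04 and 8.52 in control (adjusted p = 0.0452 in limma). In ps3886513, the brightest of the gene, they had 10.74, 10.81 and 10.74, against 10.47, 10.80 and 10.55 in control, a difference of 0.16 ± 0.15 (adjusted p = 0.708). The dim ps3886518, below the filter and named after its values were seen, had 6.81, 6.57 and 6.30 with the CPSF3 hairpin, 5.28, 4.34 and 5.64 with the RBFOX2 hairpin and 3.85, 3.71 and 4.80 in control.

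**Figure D2:**
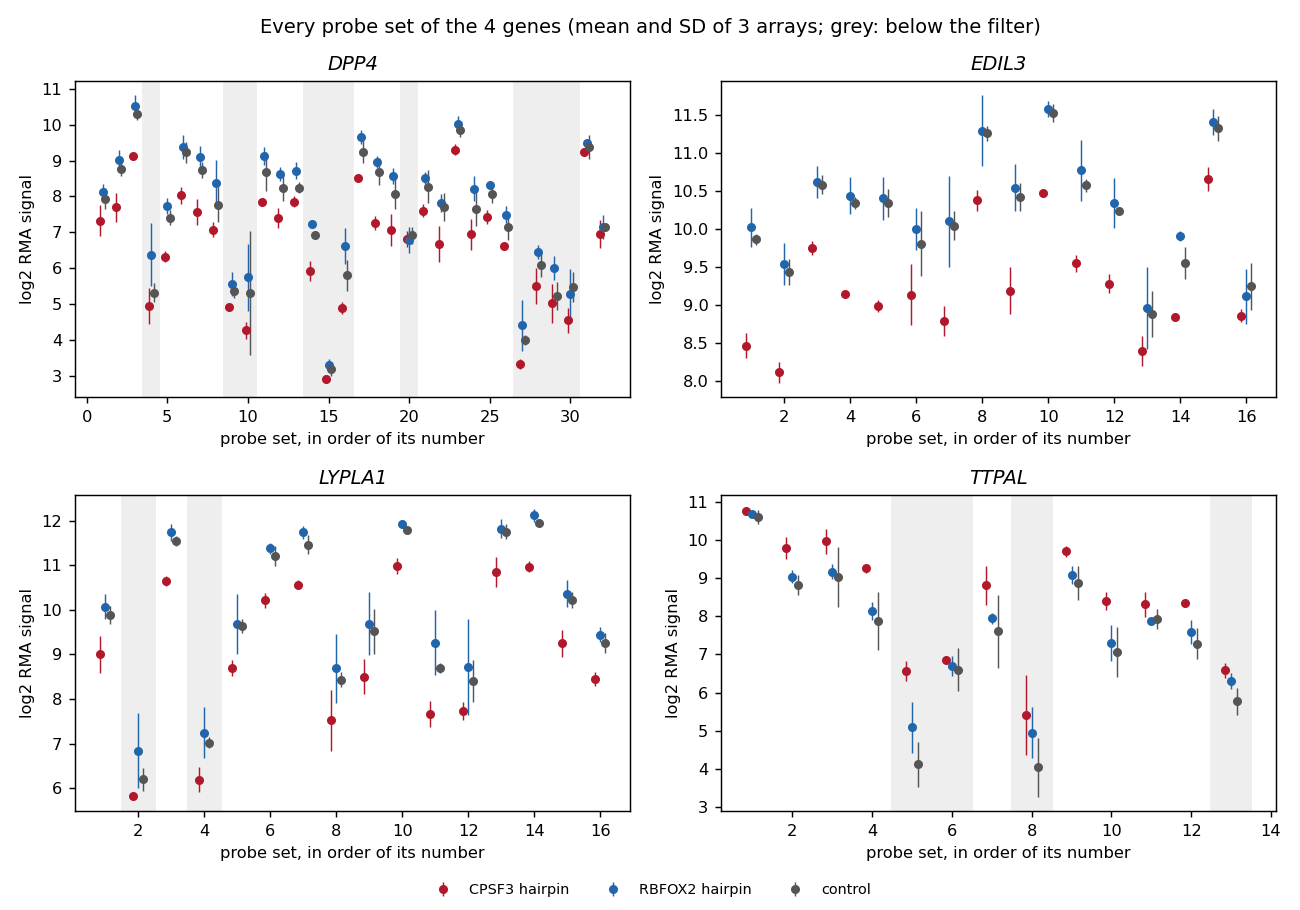
Signal (log2 RMA, vertical axis) of all 77 probe sets in order of their numbers, as mean and SD of 3 arrays for the CPSF3 hairpin, RBFOX2 hairpin and control groups; grey bands mark the 17 probe sets below the signal filter. Above the filter, the CPSF3 points run below control for DPP4, EDIL3 and LYPLA1 and above it for TTPAL. The gap is small at a few probe sets such as the first of TTPAL (ps3886513). The RBFOX2 points of DPP4 mostly lie above control, by up to 0.62 in ps2584043, and those of LYPLA1 by up to 0.57 in ps3135582.

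Signals relative to the gene's own level asked whether single probe sets departed from the rest of the gene. No exon signal of any gene passed adjustment in either comparison with control by limma, with smallest adjusted p-values of 0.0603 for the CPSF3 hairpin and 0.254 for the RBFOX2 hairpin. At an unadjusted p under 0.05, 4 of 21 probe sets of DPP4, 6 of 16 of EDIL3, 0 of 14 of LYPLA1 and 2 of 9 of TTPAL were found with the CPSF3 hairpin. That is 12 of 60 in all, or 20.0%, where 12.7% of all exon signals were found. Of the probe sets with the smallest differences named above, ps2584082 of DPP4 (0.78 relative to its gene), ps2865478 of EDIL3 (0.79) and ps3886513 of TTPAL (-0.99) were among them, and ps3135584 of LYPLA1 (0.26) was not. A probe set that differs least from control in a gene that moved has a large exon signal by construction, since the gene's median is subtracted. With the RBFOX2 hairpin 1 of 60 was found, where 7.88% of all were.

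With the RBFOX2 hairpin 0 of the 60 probe sets passed against control, where 0.000433% of all kept probe sets did, and 8 had all RBFOX2 arrays above all controls (5 of DPP4, 1 of EDIL3, 2 of LYPLA1), with 0 below. All kept probe sets lay outside the control range in 11.2% of cases. The DPP4 differences ran from -0.01 to 0.62, with 20 of 21 above 0; the largest was ps2584043 (8.98, 8.46 and 7.73 with the RBFOX2 hairpin, against 7.29, 7.76 and 8.27 in control, overlapping) and the smallest ps2584086. For EDIL3 they ran from -0.13 to 0.35 (the largest in ps2865464, the smallest in size in ps2865399), for LYPLA1 from 0.05 in ps3135569 to 0.57, and for TTPAL from -0.05 in ps3886524 to 0.35 in ps3886520. For TTPAL 8 of 9 probe sets had a difference above 0, with a median difference of 0.22, yet its gene level had -0.02. The gene level is the median over probe sets on each array separately, so it can fall on different probe sets in different arrays.

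Genes related to the 4 by function mostly did not pass the test, though those of EDIL3 leaned lower as it did. The 58 relatives, all measured, gave 7 higher and 5 lower calls with the CPSF3 hairpin, 20.7% of them, where 14.4% of all genes passed in either direction; their median difference was 0.02, beside 0.009 for all genes. With the RBFOX2 hairpin 0 of 58 passed. In the mean of both hairpins against control 5 passed as higher and 2 as lower, 12.1%, where 9.57% of all genes passed. By direction, 10.0% of all genes passed as higher and 4.38% as lower under the CPSF3 hairpin. The counts of the lists below were not tested against these shares.

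Among 12 other genes of the dipeptidyl peptidase and prolyl oligopeptidase family and DPP4's partners, 1 rose and 1 fell under the CPSF3 hairpin, with a median of 0.16. DPP9, a cytosolic relative of DPP4, rose by 0.74 ± 0.16 (adjusted p = 0.0092), and ADA, the adenosine deaminase that binds DPP4, fell by 0.43 ± 0.12 (adjusted p = 0.029). FAP, the closest relative of DPP4 and its neighbour on chromosome 2, had 0.11 ± 0.13 (adjusted p = 0.613). FAP was dim, at 7.47 in control beside a signal filter of 6.97, so a fall there could be missed.

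Of 11 relatives and integrin receptors of EDIL3, 1 rose and 3 fell under the CPSF3 hairpin. Of all genes 10.0% passed as higher and 4.38% as lower. The median of the list was -0.23, in the direction of EDIL3. MFGE8, the secreted protein most like EDIL3, fell by 0.43 ± 0.13 (adjusted p = 0.0435), and ITGB3, a partner chain of the alpha-v integrin, fell by 0.37 ± 0.11 (adjusted p = 0.0359). ITGB3 had 7.40, 7.20 and 7.29 on CPSF3 arrays, against 7.67, 7.62 and 7.73 in control, groups that did not overlap. ITGB3 was dim on all these arrays, beside a signal filter of 6.97, so the size of its fall is uncertain. CNTNAP1, a membrane protein with a discoidin domain, fell by 0.49 ± 0.11 (adjusted p = 0.0114), and DCBLD2, which carries such a domain too, rose by 1.04 ± 0.21 (adjusted p = 0.00764). DCBLD2 was also 0.76 ± 0.21 above control with the RBFOX2 hairpin, where it did not pass (adjusted p = 0.157 in limma). The alpha-v chain itself, ITGAV, had 0.34 ± 0.14 with the CPSF3 hairpin (adjusted p = 0.124).

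Of 24 other genes of the palmitoylation cycle 4 rose and 0 fell under the CPSF3 hairpin, with a median of 0.04. Of all genes 10.0% passed as higher and 4.38% as lower. The risers were the lysosomal thioesterase PPT1 (0.51 ± 0.14, adjusted p = 0.0314) and the palmitoyltransferases ZDHHC5 (0.58 ± 0.17, adjusted p = 0.0351), ZDHHC16 (0.54 ± 0.14, adjusted p = 0.023) and ZDHHC21 (0.54 ± 0.14, adjusted p = 0.0197). For ZDHHC5, control array 3 had 9.04, within the CPSF3 range of 9.01 to 9.21, and the other controls had 8.28 and 8.36. With the RBFOX2 hairpin PPT1 had 0.45 ± 0.14 and ZDHHC5 0.48 ± 0.17. ZDHHC16 had 0.27 ± 0.14 and ZDHHC21 0.08 ± 0.14 there, and none of these passed (adjusted p from 0.199 to 0.876 in limma). The closest relatives of LYPLA1 did not pass with the CPSF3 hairpin: LYPLA2 had 0.14 ± 0.11 (adjusted p = 0.452) and LYPLAL1 had 0.31 ± 0.16 (adjusted p = 0.236).

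Of 11 other CRAL-TRIO genes 1 rose and 1 fell, with a median of -0.004. BNIP2, which carries a domain of this fold, rose by 0.82 ± 0.18 (adjusted p = 0.00957), and CLVS2, a clavesin of neurons, fell by 0.49 ± 0.12 (adjusted p = 0.0184). CLVS2 was dim, at 7.85 in control and 7.37 under the CPSF3 hairpin beside a signal filter of 6.97, so the size of its fall is uncertain. TTPA, the tocopherol transfer protein after which TTPAL is named, had -0.14 ± 0.15 (adjusted p = 0.608).

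**Figure D3:**
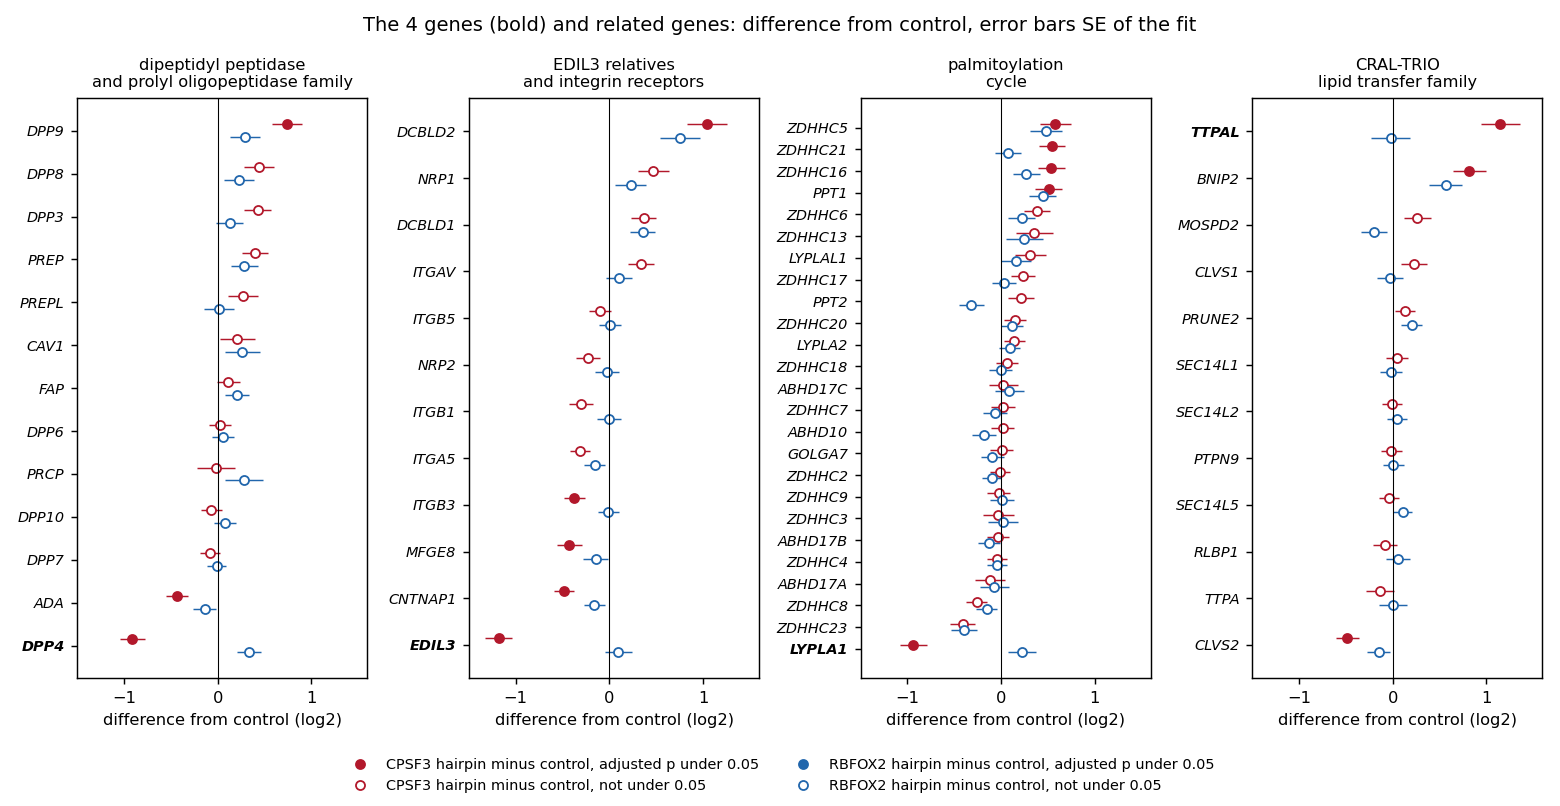
Difference from control (log2, horizontal axis) for each of the 4 genes, in bold, and for the related genes of its list, with SE of the fit; red is the CPSF3 hairpin and blue the RBFOX2 hairpin, and filled points have an adjusted p under 0.05. Each of the 4 genes lies at the end of its list under the CPSF3 hairpin, as the choice of these genes favours, and no blue point is filled.

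By Pearson correlation over the 9 arrays, DPP4 was most like C1R (0.972), EDIL3 (0.967) and CDHR1 (0.960), and most opposite to PTBP2 (-0.953). EDIL3 was most like LAPTM4A (0.979), ITGB3 (0.976) and AARS1 (0.975), and most opposite to NPLOC4 (-0.955). LYPLA1 was most like BRSK2 (0.973), ERFE (0.968) and CRABP1 (0.967), and most opposite to ANP32A (-0.965). TTPAL was most like PPP2R1B (0.985), GNAQ (0.976) and ZNF33A (0.976), and most opposite to CUBN (-0.973). The arrays fall into groups of 3, so these values describe mainly the gap between the CPSF3 arrays and the rest. Among the 4 genes, DPP4 and LYPLA1 correlated at 0.932, EDIL3 and LYPLA1 at 0.903, and TTPAL with the other members at -0.816 to -0.753. The sizes differed among these genes: LAPTM4A differed by -1.04 ± 0.15 between the CPSF3 hairpin and control (adjusted p = 0.00189), BRSK2 by -0.25 ± 0.11 (adjusted p = 0.132).

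Genes next to the 4 on their chromosomes, 2 on each side by RefSeq for GRCh38.p14, were compared to see whether a whole neighbourhood moved. Of 16 such genes 13 had a level, and 1 passed with the CPSF3 hairpin and 0 with the RBFOX2 hairpin. The 1 of 13 is 7.69%, where 14.4% of all genes passed with the CPSF3 hairpin and 0.173% with the RBFOX2 hairpin. That gene was MRPL15, a mitochondrial ribosomal protein gene beside LYPLA1 on chromosome 8, which moved the opposite way to LYPLA1. It had 9.67, 9.71 and 9.36 with the CPSF3 hairpin, against 8.82, 8.45 and 8.63 in control (0.94 ± 0.18, adjusted p = 0.00551). On the other side of LYPLA1, TCEA1 had -0.18 ± 0.11 (adjusted p = 0.311). Beside TTPAL, SERINC3 had 0.13 ± 0.18 (adjusted p = 0.703), and beside EDIL3, VCAN had -0.33 ± 0.15 (adjusted p = 0.161) and COX7C had 0.35 ± 0.13 (adjusted p = 0.0786). Beside DPP4, SLC4A10 had -0.26 ± 0.14 (adjusted p = 0.237) and GCG, which encodes the incretin precursor that supplies a DPP4 substrate, had -0.17 ± 0.14 (adjusted p = 0.467). SLC4A10 and GCG were dim, at 7.53 and 7.42 in control beside a signal filter of 6.97, so a fall there could be missed.

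**Figure D4:**
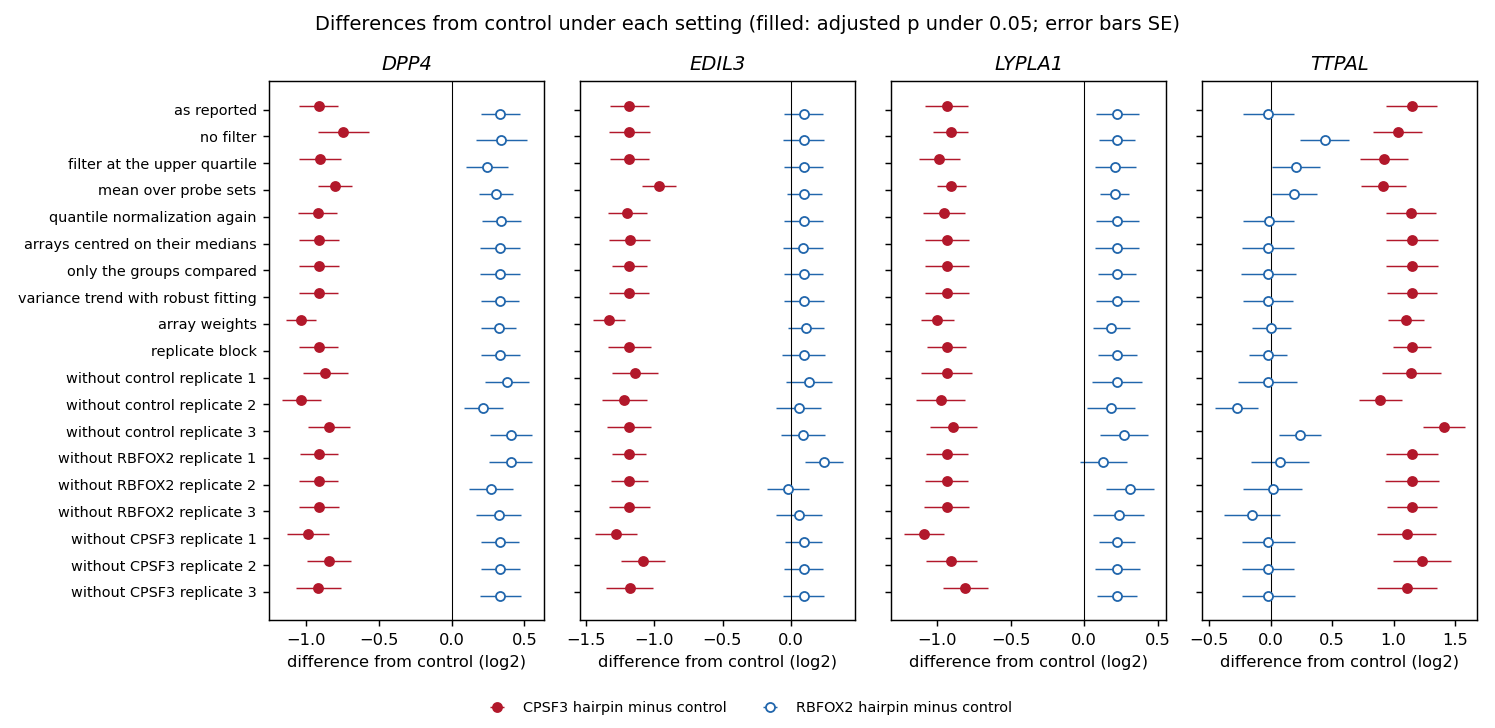
Difference from control (log2, horizontal axis, SE as bars) of the 4 genes under the reported fit and 18 other ways to process the arrays; red is the CPSF3 hairpin, blue the RBFOX2 hairpin, filled points have an adjusted p under 0.05. All red points are filled, and all blue points are open and lie between -0.28 and 0.44. The added LYPLA1 setting is not drawn.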

How the data were processed

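All 9 arrays of 3 groups were used. The authors deposited log2 signals per probe set, made with Affymetrix Power Tools and RMA on genome build hg18 per the submitters' processing notes; the Exon Array Computational Tool is also named, in the series description. Not given in the sources used here were the tool versions. RMA equalises the distributions of arrays, which hides any shift common to most transcripts. The members and lists were chosen with earlier results of these data known.

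Probe sets were named where the platform annotation gave 1 symbol (354600 of 1384231; several 14898, none 1014733). Of the symbols, 16426 were current in RefSeq, 2950 were updated and 121 kept. Probe sets with a mean at or above the median of all (6.97) were kept (692116). A gene needed at least 3 of these, and its level was their median on each array. The exon signal was the probe set minus that level, in genes with at least 5 (257548 signals in 15035 genes). R 4.3.3 was used with limma 3.58.1 and, for reading, version 1.17.8 of data.table, fitting all 3 groups in 1 model (lmFit, eBayes). Two-sided p-values were adjusted over all features by Benjamini-Hochberg (threshold 0.05). An exact permutation test of 3 against 3 cannot go below p = 0.1. Arrays of the same number had deviations that correlated between groups at -0.14 to 0.33. Arrays of unlike number were not compared in this way, so whether the numbers pair the arrays was not settled. The reported fit did not pair them.

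Genes are named by rule: the members, the targets, the 3 most correlated genes and the most opposite gene of each member, called relatives, neighbours, and the probe sets with the largest and smallest differences. Promoters came from RefSeq (DPP4 and EDIL3 are printed).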

Additional observations from a re-analysis of the deposited data

How the results depend on the processing

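The differences of the CPSF3 hairpin from control kept their direction and adjusted p under 0.05 in all 18 other settings for DPP4 (-1.03 to -0.74), EDIL3 (-1.33 to -0.96) and TTPAL (0.89 to 1.41) and in 19 for LYPLA1 (-1.09 to -0.81). None of the 4 passed with the RBFOX2 hairpin in any setting, with adjusted p from 0.096 to 0.993. The RBFOX2 difference of TTPAL reversed with no filter (0.44), a filter at the upper quartile (0.20), the mean over probe sets (0.19) and array weights (0.0033), and ran from -0.28 to 0.24 when 1 array was left out; that of EDIL3 ran from -0.020 to 0.24. The cause of these changes was not tested.

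In the contrast that chose the genes, TTPAL was 0.59 with no filter, 0.72 at the upper quartile and 0.72 with the mean. TTPAL stayed under the threshold there in 9 of 18 settings (adjusted p up to 0.326 in limma), though the choice favoured passing. DPP4 in that contrast was -1.08 with no filter and -1.10 with the mean. For the mean of both hairpins against control, TTPAL passed with no filter (0.74), the upper quartile (0.56), the mean (0.55), array weights (0.55) and the replicate block (0.56). LYPLA1 passed with the mean (-0.35), array weights (-0.41) and without its separate probe sets (-0.39, added after seeing the data), and DPP4 with array weights (-0.36). Leaving out 1 array gave 0.31 to 0.83 for TTPAL, -0.43 to -0.29 for LYPLA1, -0.41 to -0.22 for DPP4 and -0.60 to -0.47 for EDIL3.

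Counts of called genes moved more. For the CPSF3 hairpin 2409 genes became 4817 with array weights and 965 to 3429 without 1 array. For the RBFOX2 hairpin 29 became 7 with no filter, 44 with the mean, 19 with centred arrays, 5 with only the compared groups, 1513 with array weights, 137 with the replicate block and 2 to 1546 without 1 array. For the mean of both hairpins 1603 became 927 with no filter, 2474 with the mean, 4041 with array weights and 110 to 2994 without 1 array. The block changed no call of the 4 genes in the comparisons of 1 hairpin with control.

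Some small probe set differences changed sign when 1 array was left out: ps2584082 ran from -0.28 to 0.044 (CPSF3 hairpin), and with the RBFOX2 hairpin ps2584086 from -0.16 to 0.17 (0.018 with array weights), ps2865399 from -0.088 to 0.11, ps3135569 from -0.22 to 0.42, ps3886520 from -0.021 to 0.89 and ps3886524 from -0.19 to 0.064. The number of arrays, 3 a group, limits the precision.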
